A study of Rattus norvegicus with 40 samples.

Results

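The BCL2 family of apoptosis regulators was followed in the rat insulin-producing line INS-1E through exposure to inflammatory cytokines. Of 10 listed genes, 8 were found by their symbol in the platform annotation, among 16587 gene symbols in all: the protective members Bcl2 and Bcl2l1, the effectors Bax and Bak1, and the BH3-only members Bid, Bcl2l11, Pmaip1 and Hrk. Mcl1 and Bbc3 were not analysed here. The 40 arrays, labelled INS1, held biotin-labelled total RNA. In 25 of them the cells had received a pair of recombinant cytokines, IL-1 of the human sequence at 10 units/ml and mouse IFN-γ at 100 units/ml, and in the other 15 no cytokine, the control. Samples were taken at 0, 1, 2, 4, 6, 8, 10, 12, 24, 36, 48, 60 and 72 h. Cytokine times had 2 arrays except 10 h with 1, while 0 and 1 h had 2 control arrays and the other 11 times had 1. One label field lists IFN-beta and IFN-γ as the treatment. The series title and the treatment protocol give IL-1 and IFN-γ, and these were followed. The extraction protocol refers to islets, although all samples are labelled as the cell line. All results come from 1 tumour-derived line and its cultures.

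Proteins of this family decide whether the outer mitochondrial membrane is breached, the step that commits a cell to intrinsic apoptosis. BAX and BAK form the pores, BCL2 and BCL-XL hold them in check, and the BH3-only proteins either bind the protectors or activate the effectors. In beta cells the family has been studied for its part in cytokine-induced and stress-induced death. The array measures mRNA only, so cleavage, phosphorylation and protein turnover, by which several members are known to be controlled, are outside these data.

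The values are log2 signals per probe set, and levels of different genes are not set against each other. Array medians lay between 6.54 and 6.62. Mean signals of 8 beta cell markers, Ins1 and Ins2 among them, lay between 11.04 and 11.55 in cytokine arrays and between 11.29 and 11.68 in control arrays. Those of 6 leukocyte markers lay between 4.43 and 4.75 in cytokine arrays and between 4.43 and 4.86 in control arrays, and limma called 0 of them in any of the 3 windows below. Means of 10 endothelial, stromal, acinar and duct markers lay between 5.18 and 5.52 in cytokine arrays and between 5.11 and 5.54 in control arrays, with 0 called. Of 6 markers of other islet cells, with means between 5.75 and 6.41 in cytokine arrays and between 6.19 and 6.68 in control arrays, 1 was lower in the intermediate and 1 in the late window. Among beta cell markers 3 of 8 were lower in the intermediate and 5 of 8 in the late window. Over all genes 4.11% and 4.22% were called lower in these windows. The part of the beta cell markers in the family's values was not tested. In bulk RNA, fewer cells carrying a transcript and less of it per cell cannot be told apart.

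Differences are cytokine minus control on the log2 scale, with each time weighted equally. The early window takes in 1, 2 and 4 h. Times 6, 8, 10 and 12 h make up the intermediate one, and 24, 36, 48, 60 and 72 h the late one. Calls are those of limma with Benjamini-Hochberg adjustment across the 16587 symbols, taken where the adjusted p is below 0.05. In the early window 0 of 8 members were called, beside 1.49% of all genes called (1.44% higher and 0.0482% lower). At an unadjusted p under 0.05 there were 3 of 8 members and 9.17% of all genes. In the intermediate window 2 of 8 rose, Bak1 and Bid, where 4.94% of all genes were called higher, and 0 of 8 fell, where 4.11% were called lower (9.05% either way). In the late window 3 of 8 were higher than control, Bak1, Bid and Hrk (4.51% of all genes called higher). There 1 of 8 was lower than control, Bcl2l1 (4.22% called lower, 8.73% either way). Between the late and the early difference 0 of 8 members were called, beside 1.31% of all genes, and 1 of 8 had an unadjusted p under 0.05, beside 1738 of all 16587 genes. In control arrays, late against 1 to 12 h, 0 of 8 were called, beside 1.2% of all genes (0.392% higher and 0.808% lower), and 4 of 8 had an unadjusted p under 0.05, beside 15.1% of all genes. The members' median difference was 0.07 early, 0.04 in the intermediate window and 0.17 late, against -0.02, -0.03 and -0.04 over all genes. At 0 h limma called 0 of 8 members, 0 of them also at an unadjusted p under 0.05, and 0 genes in all (556 at an unadjusted p under 0.05). Without control 0 h replicate 2, 57 genes were higher and 35 lower at that time, still with 0 members among them. Bid was 0.13 higher (SE 0.17) and Bak1 0.25 lower (difference -0.25, SE 0.20) in cytokine arrays at that time. With 2 arrays per arm at 0 h, the arms of Bcl2l1, Bid, Bcl2l11 and Pmaip1 did not overlap. The share of all genes whose arms do not overlap was not computed, so such statements below only describe the values.

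**Figure D1:**
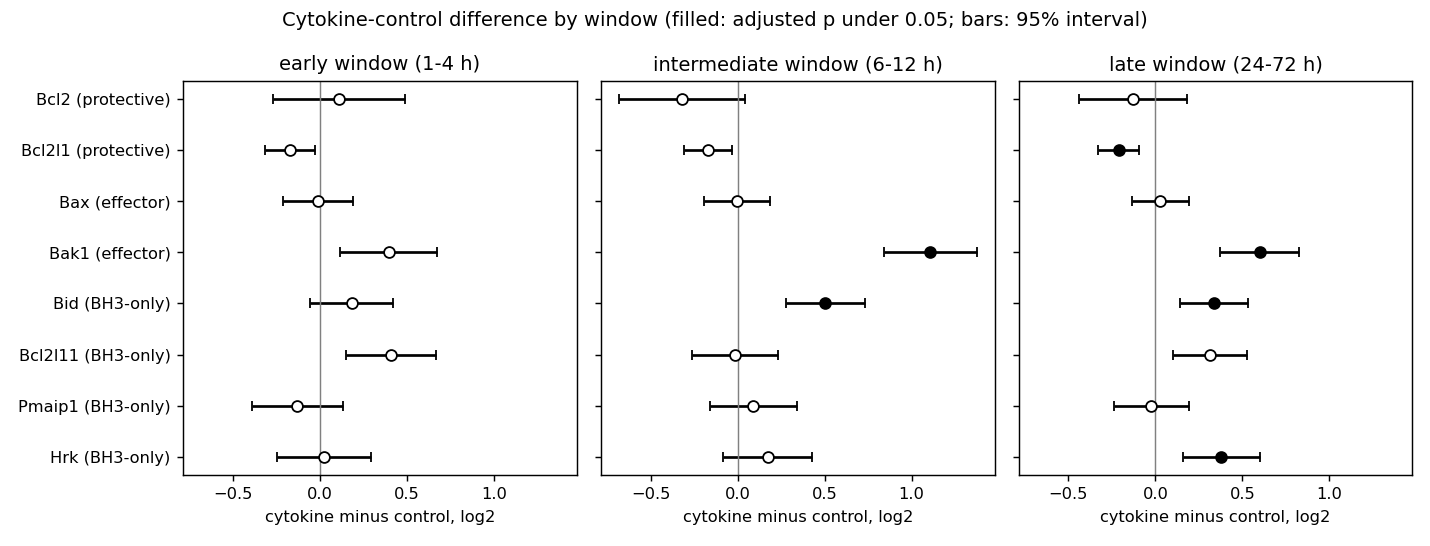
Cytokine minus control log2 difference of the 8 measured members, averaged over the times of each window, with 95% intervals from limma (filled points have an adjusted p under 0.05 over all genes). Bak1 lies farthest to the right in the intermediate window at 1.11, and Bcl2l1 is the one member called lower, in the late window at -0.21.

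Bcl2l1, which encodes the pore inhibitor BCL-XL, was lower with cytokines at late times. In the late window its signal in 10 cytokine arrays had a lowest value of 8.12, a median of 8.16 and a highest of 8.26, against 8.39, 8.42, 8.46, 8.34 and 8.32 in the control arrays at 24, 36, 48, 60 and 72 h. Every late cytokine array lay under every late control array. The difference was -0.21 (SE 0.06, 95% interval -0.33 to -0.09, limma adjusted p = 0.0212), a level 0.865 times that of control. Early and intermediate differences were -0.17 each (adjusted p = 0.381 and 0.129), and the cytokine mean was under the control mean at 12 of 12 times after 0 h. The gap at 2 h (-0.34) came with 8.08 and 7.98 in cytokine arrays, against 8.37 in the control array. At 4 h the cytokine arrays read 7.79 and 8.04, against 8.05 in control. The late call was lost without control 24 h (-0.20, adjusted p = 0.0616), 36 h (-0.19, 0.0891) or 48 h (-0.19, 0.0712), and with replicate 1 arrays alone (-0.21, 0.104). A time leaves the window in both arms when its lone control array is left out, here and for the genes below. The control level of Bcl2l1 was 0.15 higher at late times than from 1 to 12 h (SE 0.06, adjusted p = 0.217). Its mean cytokine signal was 8.20 at 0 h, 8.06 in both the early and the intermediate window, and 8.18 late. Control means were 8.16 at 0 h, 8.24 early, 8.23 in the intermediate window and 8.39 late. The late cytokine level was thus close to that at 0 h.

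Bcl2, the founding inhibitor of the family, gave no call in any window with all arrays and no term for replicate number. Its differences were 0.11 early (SE 0.18), -0.32 in the intermediate window (SE 0.17, 95% interval -0.68 to 0.04, adjusted p = 0.336) and -0.13 late (SE 0.15, adjusted p = 0.702). The widest gaps stood at 10 h, with 6.50 in the cytokine array against 6.98 in control, and at 12 h, with 6.32 and 6.48 in cytokine arrays against 6.90 in control. In both arms the late signal ended above its 24 h value: cytokine arrays read 6.41 and 6.81 at 24 h and 6.92 and 7.58 at 72 h, and control arrays 6.82 and 7.34. Arrays of replicate number 2 read higher than those of number 1 in 12 of 14 groups that hold both, by 0.35 on average (SD 0.28). After 1 h every control array is replicate 1, so this gap moves with treatment in the later windows. With replicate 1 arrays alone the late difference of Bcl2 was -0.39 and the intermediate one -0.36. That additive model holds 1 array per treatment and time, so its error is how the gap varies between times, not between replicates. With all arrays and replicate number as a block, Bcl2 was called lower in the intermediate window (-0.45, SE 0.12, adjusted p = 0.0143) and not in the late one (-0.30, SE 0.10, adjusted p = 0.0776). Whether Bcl2 was called thus depended on how the replicates and times entered the model.

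**Figure D2:**
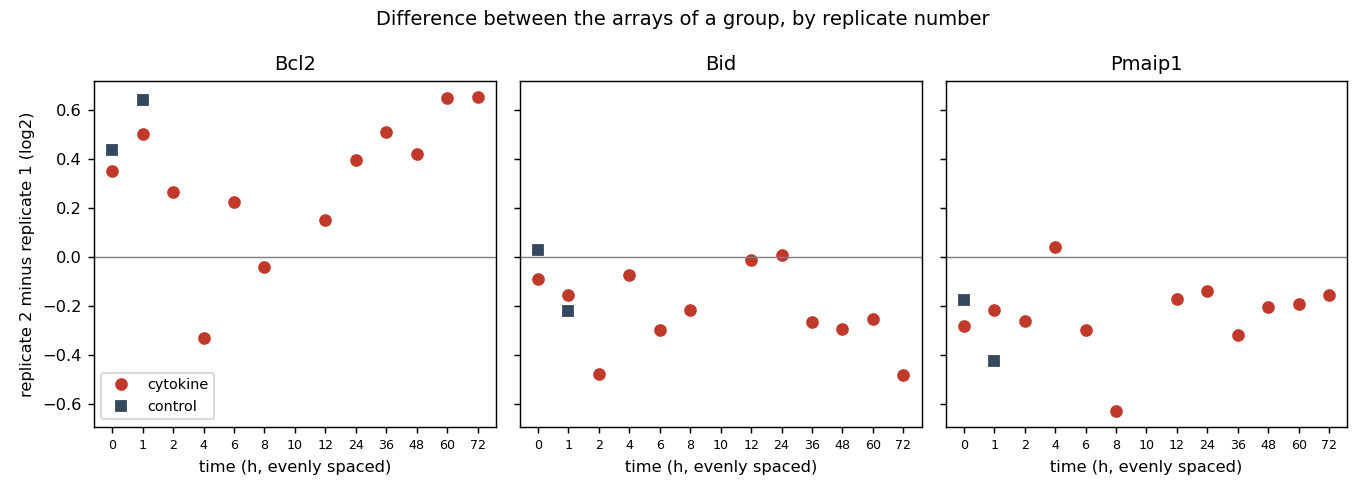
Replicate 2 minus replicate 1 signal (log2) of Bcl2, Bid and Pmaip1 in each group with both numbers, by time (circles, cytokine; squares, control). Bcl2 lies above 0 in 12 of 14 groups, Bid in 2 of 14 and Pmaip1 in 1 of 14.

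Bak1, the gene of the pore-forming effector BAK, had the largest difference among the 8 members in the intermediate and late windows. From 6 to 12 h its 7 cytokine arrays had a lowest value of 8.85, a median of 9.07 and a highest of 9.34, against 7.74, 8.09, 8.09 and 8.03 in the control arrays at 6, 8, 10 and 12 h. The arms did not overlap there, and Bak1 rose 2.16-fold (log2 1.11, SE 0.13, limma adjusted p = 2.61e-06). At 2 h the cytokine arrays, at 8.41 and 8.09, lay above the lone control array at 7.78. Control arrays at 0 h had read 8.46 and 7.92, so both cytokine values lie within the control range from 0 to 2 h. At 4 h the cytokine arrays read 8.68 and 9.08 against 8.08. At 1 h the arms overlapped, at 7.93 and 8.01 with cytokines against 8.15 and 7.96 without. The early window as a whole did not pass (0.40, SE 0.13, adjusted p = 0.241). Leaving out 1 array moved this early difference between 0.19 and 0.46.

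Late Bak1 values were nearer to control again. The 10 late cytokine arrays ran from 7.84 to 8.69 with a median of 8.23, against 7.72, 7.59, 7.80, 7.62 and 7.80 in control arrays at 24, 36, 48, 60 and 72 h. The arms still did not overlap (log2 0.60, SE 0.11, 1.51-fold, limma adjusted p = 0.000943). Single-time differences were 1.23 at 6 h, 0.87 at 24 h, 0.54 at 60 h and 0.21 at 72 h. Both Bak1 calls remained without any 1 of the arrays, at 1.06 to 1.16 in the intermediate and 0.53 to 0.70 in the late window. With replicate 1 arrays alone the differences stood at 1.17 and 0.72.

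Bax, the gene of the other effector, stayed close to control. Its difference was -0.01 early (95% interval -0.21 to 0.19), -0.0045 in the intermediate window (-0.20 to 0.19) and 0.03 late (-0.14 to 0.19), with adjusted p of 0.986, 0.988 and 0.889. The 10 late cytokine arrays spanned 8.98 to 9.47, around the control values of 9.31, 9.41, 9.31, 9.23 and 9.07. The arms overlapped, and the intervals leave room for changes in either direction.

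Bid encodes a BH3-only protein that links death receptors to mitochondria once caspase-8 has cut it. Its 7 intermediate cytokine arrays had a lowest value of 7.76, a median of 8.06 and a highest of 8.35, against 7.54, 7.59, 7.68 and 7.61 in control arrays at 6, 8, 10 and 12 h. Here the arms were separate, and Bid rose 1.42-fold (log2 0.50, SE 0.11, limma adjusted p = 0.00391). The arms had also been separate at 0 h, at 7.47 and 7.38 with cytokines against 7.28 and 7.31 in control. The widest gaps were at 8 h (8.35 and 8.13 with cytokines, against 7.59 in control) and at 10 h (8.31 against 7.68). In the early window the difference was 0.18 (SE 0.11, adjusted p = 0.687).

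In the late window Bid ran from 7.38 to 8.01 in cytokine arrays with a median of 7.80, against 7.64, 7.53, 7.14, 7.30 and 7.34 in control arrays. The arms overlapped, and the rise was 1.26-fold (log2 0.34, SE 0.09, limma adjusted p = 0.0269). This late call is near the threshold. It did not pass without the control array at 24 h (0.35, adjusted p = 0.0506), 36 h (0.34, 0.0677) or 48 h (0.28, 0.133), or without the replicate 1 cytokine array at 36 h (0.31, 0.0579), 48 h (0.31, 0.0587) or 60 h (0.31, 0.0536). Replicate 2 arrays of Bid read lower than replicate 1 in 12 of 14 groups, by 0.20 on average (difference -0.20, SD 0.16). With replicate 1 arrays alone the late difference was 0.47. Bid and Bak1 were above control at every intermediate and late time.

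**Figure D3:**
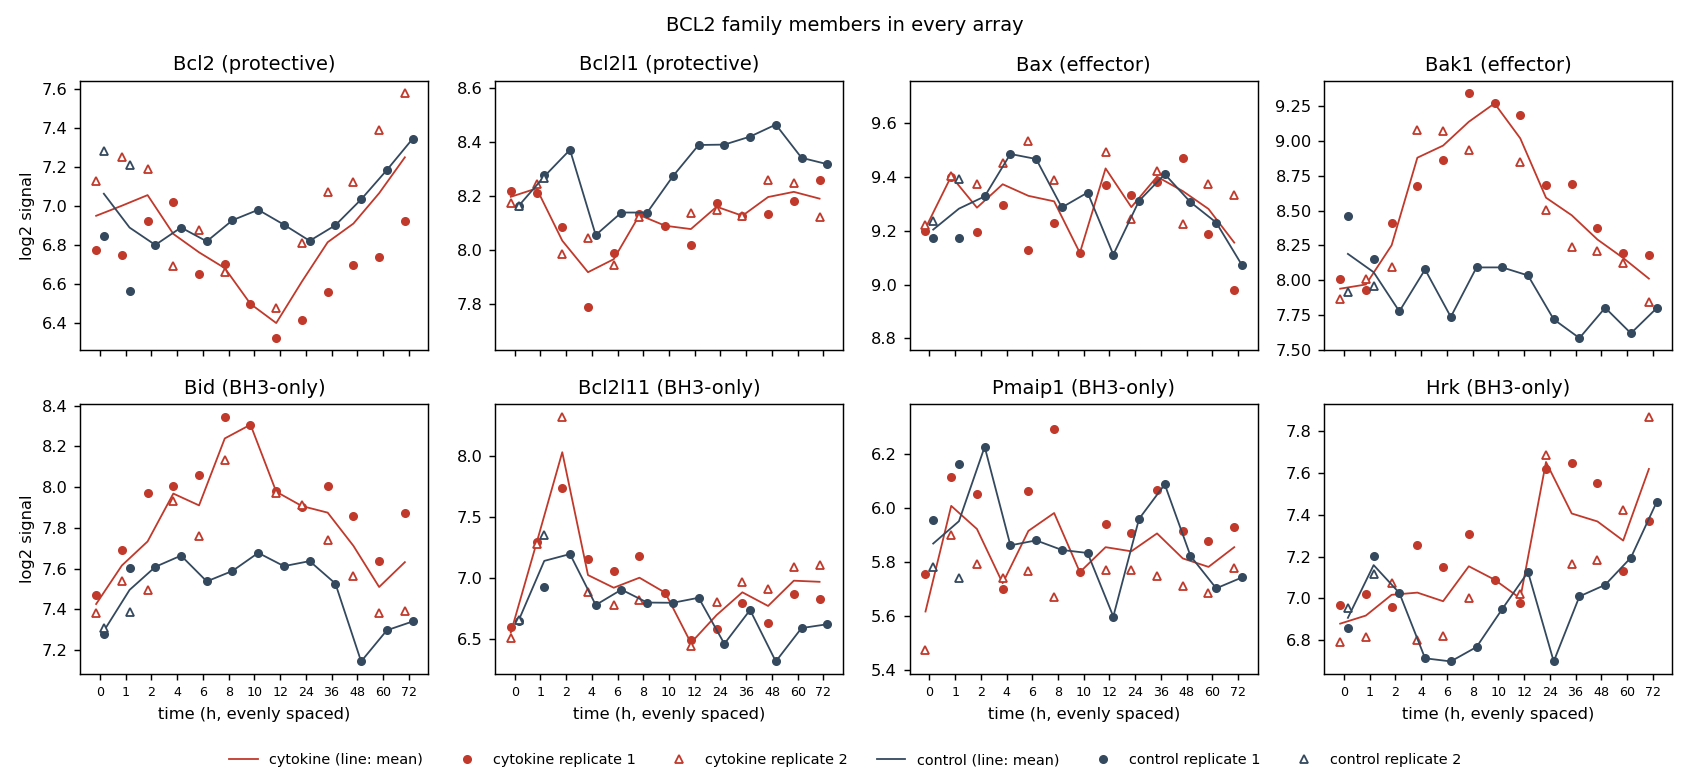
Log2 signal of each measured member in all 40 arrays against time (h, evenly spaced; red, cytokine; dark blue, control; circles, replicate 1; open triangles, replicate 2; lines, group means). Cytokine arrays of Bak1 and Bid lie above the control arrays from 6 to 12 h, reaching 9.34 and 8.35. Those of Bcl2l1 lie under the control arrays of the same window from 6 to 12 h, by a narrow margin, and from 24 to 72 h.

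Promoter windows, from 250 bases before to 50 after an annotated start, were read for 7 of the 8 members, all but Bax, from RefSeq (rat assembly GRCr8). They are shown for Bak1 and Bid because both genes rose between 6 and 12 h. Capitals would mark a match to any of 4 motifs searched on both strands: GAAA, 2 bases of any kind and GAAA (as in interferon-stimulated response elements), GGG, 2 bases of any kind and TTTCC (NF-kB), TGANTCA (AP-1) and TGACGTCA (CRE).
Bak1 (chr20:5110925-5111224, minus strand): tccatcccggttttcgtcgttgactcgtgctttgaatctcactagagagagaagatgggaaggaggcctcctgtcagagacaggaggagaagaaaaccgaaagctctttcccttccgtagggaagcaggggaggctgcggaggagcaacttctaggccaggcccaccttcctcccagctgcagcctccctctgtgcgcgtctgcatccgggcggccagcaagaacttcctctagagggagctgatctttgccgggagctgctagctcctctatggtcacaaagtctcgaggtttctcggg
Bid (chr4:155808270-155808569, minus strand): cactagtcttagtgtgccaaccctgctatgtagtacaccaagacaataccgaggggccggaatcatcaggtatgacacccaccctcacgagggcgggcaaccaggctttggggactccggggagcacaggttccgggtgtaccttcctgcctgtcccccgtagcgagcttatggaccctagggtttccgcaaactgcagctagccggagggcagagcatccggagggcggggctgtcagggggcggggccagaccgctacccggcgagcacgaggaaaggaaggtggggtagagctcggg
The Bak1 and Bid windows held no exact match to any of the 4 motifs, so no capitals appear, nor did those of Bcl2, Bcl2l1, Bcl2l11, Pmaip1 and Hrk. Near matches were not searched for. The Bak1 window holds aaaaccgaaa, which differs from the first motif only in its first letter. The motifs occurred in 3.92%, 1.53%, 7.33% and 1.83% of 33469 promoter windows, in the order listed. A match is a run of letters, and its absence from 300 bases says nothing of the factor.

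Bcl2l11 encodes BIM, a BH3-only activator controlled by stress kinases and FOXO factors. Its highest cytokine values were at 2 h, when the arrays read 7.74 and 8.32, against 7.19 in the control array, a difference of 0.83. The signal had already been higher at 1 h in both arms, at 7.29 and 7.28 with cytokines and 6.92 and 7.35 without, than at 0 h, when the cytokine arrays read 6.59 and 6.51 and the control arrays 6.64 and 6.65. At 4 h cytokine arrays were at 7.16 and 6.89, against 6.78 in control, and at 12 h they read 6.49 and 6.44, under the control value of 6.84.

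Averaged over the early window, the Bcl2l11 difference was 0.41 (SE 0.12, adjusted p = 0.149), and over the late window 0.31 (SE 0.10, adjusted p = 0.0604). Neither passed, while the intermediate value was -0.02 (adjusted p = 0.969). The early value passed without control 1 h replicate 2 (0.48, adjusted p = 0.0498) or cytokine 2 h replicate 1 (0.51, 0.0324), and the late value without cytokine 72 h replicate 1 (0.34, 0.0459). The early value was 0.20 without the control array at 2 h, which takes that time out of the window. Late control values were 6.46, 6.74, 6.31, 6.59 and 6.62, and the late cytokine arrays ran from 6.58 to 7.11 with a median of 6.85.

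Hrk, also known as Dp5 or harakiri, encodes a BH3-only protein with a role in neuronal and beta cell death, and passed the test in the late window. Late cytokine arrays ran from 7.13 to 7.87 with a median of 7.49, against 6.70, 7.01, 7.06, 7.20 and 7.46 in control arrays. The arms overlapped: the control arrays at 60 and 72 h lay above the lowest cytokine arrays. The difference was 0.38 (SE 0.11, 1.30-fold, limma adjusted p = 0.0281). At 24 h cytokine arrays read 7.62 and 7.68, against 6.70 in control, a gap of 0.95, whereas at 60 h the gap was 0.08. Early and intermediate differences were 0.02 and 0.17 (adjusted p = 0.982 and 0.514), and the late minus early difference of 0.36 did not pass (adjusted p = 0.461).

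The late call for Hrk rests largely on 24 h. Without that control array it was 0.24 (adjusted p = 0.327), and it was also lost without control 36 h (0.37, 0.0719), without cytokine replicate 1 at 36 h (0.33, 0.0605) or 48 h (0.34, 0.0613), and without cytokine replicate 2 at 60 h (0.35, 0.0564) or 72 h (0.33, 0.0568). With the arrays of the window alone it stood at 0.38 (adjusted p = 0.0784), and with replicate 1 arrays at 0.38 (SE 0.15, adjusted p = 0.197). Pmaip1, which encodes NOXA, a BH3-only protein known to bind MCL1, differed by -0.13, 0.09 and -0.02 across the 3 windows (adjusted p = 0.826, 0.776 and 0.934). Its late cytokine values, from 5.69 to 6.07, covered nearly the same span as the control values of 5.96, 6.09, 5.82, 5.70 and 5.74. Replicate 2 arrays of Pmaip1 read lower in 13 of 14 groups, by 0.24 on average (difference -0.24, SD 0.15).

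**Figure D4:**
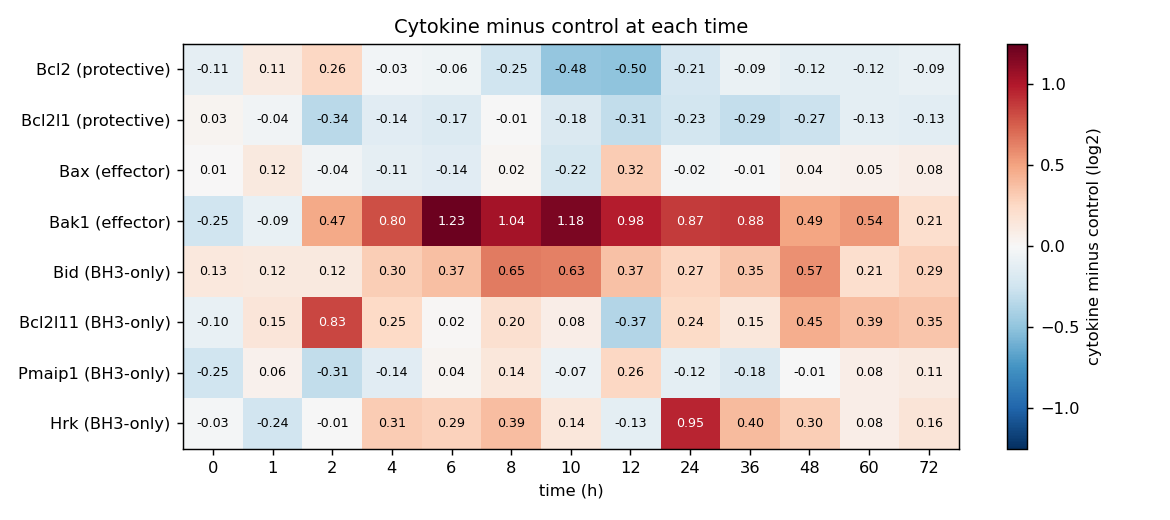
Cytokine minus control log2 difference of each member at each of 13 times (rows grouped by role; red, higher with cytokines; blue, lower). Bak1 lies between 0.80 and 1.23 from 4 to 36 h, the Bcl2l11 value of 0.83 stands alone at 2 h and the Hrk value of 0.95 at 24 h, and Bcl2l1 is under 0 at every time after 0 h.

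By role, protective members averaged -0.41 at 12 h, with both under control, and -0.11 at 72 h. Effectors averaged 0.65 at 12 h and 0.15 at 72 h, with the gap between their members at 6 h running from -0.14 (Bax) to 1.23 (Bak1). BH3-only members averaged 0.34 at 8 h, 0.34 at 24 h and 0.23 at 72 h, and at 6, 8, 60 and 72 h all 4 of them were above control. Protective members averaged under 0, and effectors and BH3-only members above 0, at every time from 2 to 72 h. Single members carried several of these means. Bax was under control at 2, 4, 6, 10, 24 and 36 h, so that Bak1 alone held the effector mean above 0 there. Bcl2 was at 0.26 at 2 h, within a protective mean of -0.04, and Pmaip1 at -0.31 at 2 h and -0.12 at 24 h, within BH3-only means of 0.16 and 0.34. These are means of 2 or 4 genes, without Mcl1 and Bbc3, described without a test. Genes of the same roles in the wider family, given below, did not all follow this split.

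The genes whose pattern over the 26 group means was most like that of a called member were found by Pearson correlation, as a description. All points share the arrays and the cytokine response. For Bak1 they were Cmpk2, an interferon-induced mitochondrial nucleotide kinase gene (r = 0.98), Rab5b, an endosomal GTPase gene (0.96), and Rnf115, a ubiquitin ligase gene (0.96). For Bid they were Rfx5, a transcription factor gene of MHC class II promoters (0.93), Ogfr, the opioid growth factor receptor gene (0.92), and Psma2, a proteasome subunit gene (0.91). Hrk was matched by Dynlt2b (0.86), Serinc2 (0.84) and the autophagy adaptor gene Wdfy3 (0.84), and Bcl2l1 by the diacylglycerol kinase gene Dgki (0.86), Eml5 (0.84) and the mRNA-binding protein gene Cpeb2 (0.83).

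The wider family was represented by 12 of 13 listed genes. In the intermediate window 2 of 12 rose, beside 4.94% of all genes called higher, and 0 fell, beside 4.11% called lower. Early and late 0 of 12 passed, beside 1.49% and 8.73% of all genes called either way. Bcl2l14, a family relative, rose by 0.53 (SE 0.11, limma adjusted p = 0.00368), with means of 7.04 ± 0.18 in cytokine arrays (SD, n = 7) and 6.52 ± 0.11 in control arrays (SD, n = 4). Bcl2l12 rose by 0.32 (adjusted p = 0.0489) and was at -0.32 in the early window (adjusted p = 0.185). The protective genes Bcl2l2, Bcl2a1 and Bcl2l10 were at 0.04, 0.20 and 0.19 in the intermediate window, and Bcl2a1, a known NF-kB target, was at 0.01 late. The probe set read for Bcl2a1 carried the platform symbol Bcl2a1d. Mean signals of Bcl2a1 and Bcl2l10 were low, at 4.21 and 4.84 (percentiles 13.3 and 21.6 of all symbols), and may lie in the background. The BH3-only genes Bad, Bik and Bmf differed by -0.04, -0.19 and -0.01 late, the effector relative Bok by -0.07, and Bnip3l, a mitophagy receptor gene, by -0.03. Bcl2l13 and Bcl2l15 were at 0.05 and -0.05. The wider family's median was 0.04 in the intermediate window against -0.03 over all genes, and -0.04 late, as over all genes.

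Downstream of the mitochondrial pore, 14 of 19 listed genes were measured. Of these 14, 2 rose early, 3 in the intermediate window and 1 late. Over all genes 1.44%, 4.94% and 4.51% were called higher in these windows. In each of them 0 of 14 fell, beside 0.0482%, 4.11% and 4.22% of all genes called lower. Birc3 and Birc2 encode inhibitor of apoptosis proteins, and Birc3 is a known NF-kB target. Birc3 was at 7.41 ± 0.14 in cytokine arrays (SD, n = 7) and 5.11 ± 0.13 in control arrays (SD, n = 4) from 6 to 12 h, a 5.02-fold rise (log2 2.33, SE 0.12, limma adjusted p = 8e-12), and late it rose by 1.59 on the log2 scale (adjusted p = 6.38e-10). Birc2 rose by 0.48 early and 0.72 in the intermediate window (adjusted p = 0.00718 and 8.58e-06), with 0.25 late (adjusted p = 0.0502). Apaf1, the scaffold of the apoptosome, rose by 0.53 in the intermediate window (SE 0.15, adjusted p = 0.0227) and was at 0.0023 late. Casp9, the initiator caspase that Apaf1 recruits, was at -0.15 late (adjusted p = 0.25), Xiap, a caspase inhibitor gene, at -0.02 and Diablo, whose product counters XIAP, at -0.095.

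Among genes known to act on members, 15 of 18 were measured. Of these 15, 1 rose early, 4 in the intermediate window and 6 late. Over all genes 1.44%, 4.94% and 4.51% were called higher in these windows. Late 1 of 15 fell, beside 4.22% of all genes called lower. Jun, an AP-1 factor placed upstream of Hrk, rose by 1.05 early (SE 0.17, adjusted p = 0.000621) and 0.86 in the intermediate window (adjusted p = 0.000985), and stood at 0.24 late (adjusted p = 0.352). In the early control arrays Jun spanned 6.12 to 8.07, against 7.12 to 8.27 in the cytokine arrays. Ddit3, which encodes the stress factor CHOP, rose by 0.66 in the intermediate and 0.89 in the late window (adjusted p = 0.00143 and 1.02e-05). Trib3, a pseudokinase gene induced by ATF4 and CHOP, rose by 0.60 and 1.07 in these windows (adjusted p = 0.031 and 3.56e-05), and Atf4 and Atf3 rose by 0.30 and 0.61 late. Nfkb1 rose by 0.87 and 0.59 (adjusted p = 5.51e-06 and 0.000147), and Rela by 0.23 late (adjusted p = 0.0364). E2f1 fell by 0.29 late (adjusted p = 0.0427), while Foxo3 and Foxo1, known activators of Bcl2l11, were at 0.15 and -0.26 early and 0.09 and 0.04 late (adjusted p = 0.675, 0.472, 0.566 and 0.883).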

How the data were processed

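RNA was measured on 40 arrays. The authors deposited 1 log2 value per probe set and array, and these were taken unchanged. The log2 scale rests on their range (2.27 to 14.46). How the authors corrected background, summarised and normalized is not given in the sources used here. Of 19239 probe sets, 16592 had 1 symbol in the platform annotation, 0 several and 2647 none. Symbols were updated by gene number against a GRCr8 gene table (13094 identical, 3326 updated, 33 in conflict and kept, 139 not in that table), with the brighter of several probe sets kept for 5 symbols. Dim probe sets stayed in and no detection calls were used, so a low signal may lie in the background.

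The test was limma (version 3.58.1, R 4.3.3, lmFit and eBayes) with 1 coefficient per group of treatment and time (26 groups, 14 residual and 6.05 prior degrees of freedom), so a lone array was assumed to vary like groups with 2. The labels do not say that replicates came from separate cultures, so p-values of this test rest on array-to-array spread, which could be technical. The script was tested on simulated data with independent noise and set late differences. That simulation held no difference between replicate numbers, so it cannot speak to their effect. Named were all members, all measured genes of the wider family, and downstream genes and regulators called in a window plus up to 3 more per list. Members, lists and windows were chosen with earlier results of these data known. Alternatives were the replicate block, quantile normalization, median centring, a filter on the dimmest symbols, trend and robust moderation, array weights (statmod 1.5.0), an additive model, the same on replicate 1, and each array left out. Where the array left out was the only one of its group, cytokine-control comparisons lost that time in both arms. The additive models fit 1 difference to all times of a window. Their p-values therefore also rest on how the difference varies between times. With replicate 1 arrays alone they rest on that only, as no group then holds a replicate.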

Additional observations from a re-analysis of the deposited data

Results flagged for a closer look

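Trib3, from the list of genes known to act on members, responded differently at late and early times by a test of the difference itself. It was picked as the 1 gene called in this comparison among the members and the wider, downstream and regulator lists. How its value depends on single arrays or settings was not examined. Its late minus early cytokine-control difference was 1.04 (SE 0.23, limma adjusted p = 0.0257), with 1.07 late and 0.03 early. Late cytokine arrays averaged 6.19 ± 0.67 (SD, n = 10) and late control arrays 5.11 ± 0.20 (SD, n = 5). Of all genes, 1.31% were called in this comparison, and 0 of the 8 measured BCL2 family members were, with 1 (Hrk) at an unadjusted p under 0.05, against 1738 of all 16587 genes. No group holds enough arrays for a search for outlying arrays.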

How the results depend on the processing

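Under 8 settings other than leaving out an array, the 64 member values of the early window stayed on their side of the threshold, as did 63 of 64 in the intermediate and 56 of 64 in the late window, where 3 calls were lost and 5 gained. Bcl2l11 was gained late with quantile normalization (0.33, adjusted p = 0.0475), the dimmest symbols left out (0.31, 0.0445), array weights (0.31, 0.044) and the additive model (0.31, 0.0159). Bcl2 was gained late with replicate 1 arrays alone, a model without replicate spread that also called its late minus early difference (-0.53). 0 called values changed sign, and of uncalled ones 3, 3 and 5 did in the 3 windows. With the replicate number as a block, Bcl2 was called lower in the intermediate window (-0.45, SE 0.12, adjusted p = 0.0143), which made 1 member lower there against 0, and the late call of Bcl2l1 was kept (-0.22, 0.0151), as were Hrk (0.43, 0.0137), Bid (0.44) and Bak1 (0.69). In control arrays, late against 1 to 12 h, Bcl2l11 was called lower with the block (1 member against 0) and with replicate 1 arrays alone (1 against 0). Replicate 1 arrays alone also made 1 member lower in the late minus early comparison, against 0. The differences between replicate numbers correlated by -0.17 to 0.43 between groups (68 of 91 correlations above 0.1), and the blocked model called 2986 genes for replicate number, Bcl2 (adjusted p = 0.00238), Bid (0.00707) and Pmaip1 (0.00143) among them. The labels do not say what the arrays of 1 replicate number share, and this was not tested. Leaving out 1 array, 0 to 1 members were higher early, 2 in the intermediate window and 1 to 4 late, with 0 lower early and in the intermediate window and 0 to 1 late, and 0 at 0 h, in late minus early and in the control comparison.

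Counts over all genes moved more. Early, 239 genes were higher and 8 lower. The additive model gave 45 higher and 0 lower. With only replicate 1 there were 20 higher and 0 lower, and 26 lower under the block and 13 under quantile normalization. In the intermediate window 682 were lower, against 1034 with the block and 351 with replicate 1 arrays. Late minus early called 108 higher and 110 lower, against 200 and 215 with the block and 61 and 68 with replicate 1 arrays. The control comparison called 65 higher and 134 lower, against 339 and 503 with the block, 153 and 293 with replicate 1 arrays, 109 higher with quantile normalization, and 241 and 237 lower with the dimmest symbols left out and the additive model. Leaving out 1 array gave 90 to 273 higher and 5 to 79 lower early (90 without control 4 h, 79 without control 1 h replicate 2), 666 to 816 and 346 to 713 in the intermediate window (346 without control 12 h), 545 to 781 and 403 to 725 late (403 without control 36 h), 0 to 57 and 0 to 35 at 0 h, 54 to 127 and 43 to 144 in late minus early (54 and 43 without control 2 h), and 4 to 75 and 16 to 148 in the control comparison (4 and 16 without control 72 h). Control arrays at 4, 6, 8, 48 and 60 h also moved the control comparison by over 1.5 times, as did 8 h the intermediate and 24 h the late count of lower genes. The cause of these moves was not tested. The number of arrays limits the precision.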

Other observations

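Late control arrays (24 to 72 h) minus control arrays from 1 to 12 h gave 0 of 8 members called by limma, against 1.2% of all genes, and 4 of 8 at an unadjusted p under 0.05, against 15.1% of all genes. Bcl2l11 was 0.38 lower at late times (difference -0.38, SE 0.11, adjusted p = 0.0844), Bak1 differed by -0.28 (SE 0.12, 0.255) and Bid by -0.21 (SE 0.10, 0.326), while Bcl2l1 was 0.15 higher (0.217). The Bak1 control signal was 7.71 ± 0.10 late (SD, n = 5) and 7.99 ± 0.17 from 6 to 12 h (SD, n = 4). Hrk was at 0.17 (adjusted p = 0.513), and its lone 72 h control array, at 7.46, was the highest of the 15.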
